A study of Mus musculus with 15 samples.

Results

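Levels of 10 transcripts that build plasma lipoproteins were followed across chemically induced liver tumours and normal mouse liver. The members are the apolipoprotein genes Apoa1, Apoa2, Apoa4, Apoa5, Apob, Apoc1, Apoc3, Apoe and Apom, and Mttp, taken by name from a count table of 23284 gene symbols. All 10 were found, and all 10 passed the filter on low counts in every comparison. RNA sequencing of poly-A RNA covered 15 libraries. The first group holds 6 tumours from Hmgb1-deleted mice, which are Hmgb1 fl/fl mice that express Albumin-Cre, a driver that acts where the albumin promoter is or has been active, chiefly in hepatocytes. The second group holds 6 tumours from floxed control mice (Hmgb1 fl/fl, with no Cre named). Both groups of tumours were given as hepatocellular carcinoma, raised with DEN (diethylnitrosamine, 25 mg/kg given once by intraperitoneal injection on day 15 after birth) and CCl4 (carbon tetrachloride, 0.5 µl/g in corn oil, every week from week 8 over 15 weeks). The third group holds 3 normal livers of C57Bl/6 control mice, for which no DEN, CCl4 or floxed allele is named, so tumour state, chemical treatment and allele differ together between tumours and normal liver and cannot be told apart. The labels do not give the age at collection, the sex, or whether tumours of a group came from separate mice, so the p-values rest on differences among RNA samples, which may in part be technical.

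Apolipoproteins are the proteins that coat lipoprotein particles, the carriers of triglyceride and cholesterol in plasma, and the liver is a main source of most of them. The hepatocyte builds very low density lipoprotein by loading lipid onto apolipoprotein B, a step that needs the microsomal triglyceride transfer protein encoded by Mttp. High density lipoprotein is built around apolipoproteins A-I and A-II, and the small exchangeable apolipoproteins move between particles and set how fast enzymes and receptors clear them.

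The libraries held 18973246 to 26293378 counts in Hmgb1-deleted tumours, 20191452 to 30929442 in floxed tumours and 23193714 to 26997782 in normal livers, and levels are CPM, which are counts divided by the library total and by its TMM factor. Hmgb1 itself averaged 14.8 ± 2.76 CPM in Hmgb1-deleted tumours (SD, n = 6), 27.9 ± 3.36 CPM in floxed tumours (n = 6) and 23.9 ± 6.07 CPM in normal livers (n = 3). The exact two-sided permutation test of the Hmgb1-deleted against the floxed tumours gave p = 0.0022, the smallest p this design allows, and an adjusted p of 0.00649 over 3 comparisons. Albumin, which defines hepatocytes, took 7.69% to 13.0% of all counts in Hmgb1-deleted tumours, 11.2% to 19.6% in floxed tumours and 7.66% to 9.37% in normal livers. On the second principal component over all genes, Hmgb1-deleted tumours 2 and 5 stood at -58.5 and -64.1, while the other 13 libraries lay between -17.8 and 30.3. These 2 tumours also had the highest scaling factors, 1.37 and 1.35, so results that rest on them are given with and without them.

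Members passed in about the same share as all genes, or in a smaller one. In Hmgb1-deleted against floxed tumours, 0 of the 10 members passed an adjusted p of 0.05 in edgeR's quasi-likelihood test with Benjamini-Hochberg adjustment, where 7.78% of 13433 genes tested passed (4.45% higher and 3.33% lower). Apoa1, Apoa5 and Apom had an unadjusted p under 0.05, which makes 3, and DESeq2 and voom each called 1 member, Apoa1. In Hmgb1-deleted tumours against normal liver, 1 of 10 members passed, where 34.7% of 13784 genes did (18.1% higher and 16.6% lower), and it was Apoa4, which was higher. In floxed tumours against normal liver, 5 of 10 passed, close to the 48.7% of 13784 genes that did (24.9% higher and 23.8% lower): Apoa1, Apoa4 and Apom were higher, and Apoa2 and Apoa5 were lower. The median log2 fold change of the members was -0.22, -0.19 and 0.32 in these 3 comparisons, beside 0.02, 0.05 and 0.06 over all genes tested. The last 2 comparisons share the normal livers.

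**Figure D1:**
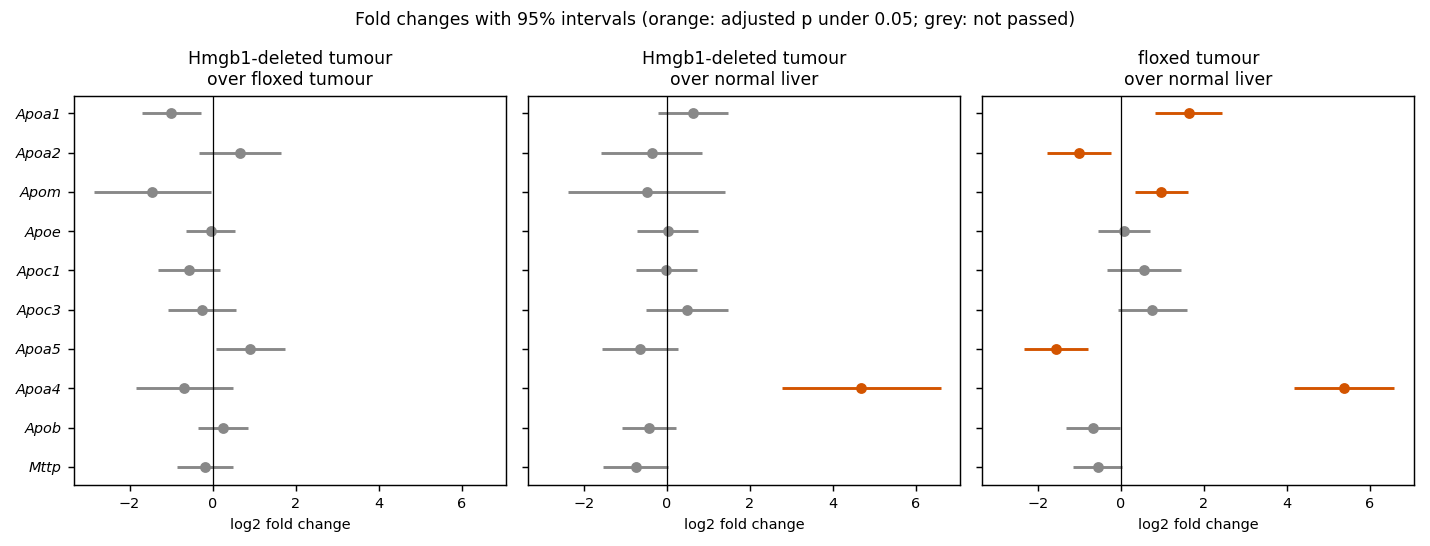
Log2 fold change of each member (points) with its 95% interval (bars) in Hmgb1-deleted over floxed tumours, Hmgb1-deleted tumours over normal liver, and floxed tumours over normal liver, with members that passed an adjusted p of 0.05 in orange. Apoa4 lies far to the right in both comparisons with normal liver, at 4.69 and 5.37, and no member passed between the tumour groups.

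Apoa1, Apoc3, Apoa4 and Apoa5 are neighbours on chromosome 9 in the mouse annotation, with no other protein-coding gene between them. In floxed tumours against normal liver, Apoa1 and Apoa4 were higher, Apoa5 was lower and Apoc3 did not pass. Apoa4 encodes an apolipoprotein best known from the intestine, where it is secreted on chylomicrons, and it is also made in mouse liver, where it is known to rise with hepatic fat. It was the member furthest from normal liver. Its levels in Hmgb1-deleted tumours 1 to 6 were 6132, 1583, 2708, 1056, 435.6 and 2632 CPM. In floxed tumours 1 to 6 they were 4043, 4949, 6354, 1268, 2662 and 4345 CPM. Normal livers 1 to 3 had 97.3, 104.6 and 83.3 CPM. All 12 tumours lay above all 3 normal livers, while the 2 tumour groups overlapped over most of their range. The log2 fold change was 4.69 ± 0.85 (SE; adjusted p = 0.00457, edgeR) in Hmgb1-deleted tumours and 5.37 ± 0.54 (adjusted p = 3.96e-05, edgeR) in floxed tumours, or 25.9-fold and 41.4-fold above normal liver. Between the tumour groups it was -0.68 (95% interval -1.86 to 0.50). Apoa4, Apoa5 and Mttp overlap genes on the opposite strand, and the strand setting of the counting is not given in the sources used here. Within the Hmgb1-deleted tumours the highest Apoa4 level was 14.1 times the lowest, against 5.01 times within the floxed tumours and 1.26 times within normal livers.

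Enterocyte markers bear on Apoa4, since the intestine makes the most of it. Of 12 such markers, Cdx1 and Sis were at 0 counts in all 15 libraries, and Vil1 did not exceed 1.14 CPM in any. The summed level of the list was 148 to 278 CPM in Hmgb1-deleted tumours, 191 to 401 CPM in floxed tumours and 204 to 261 CPM in normal livers, with Anpep at 83.97 to 198 CPM and Fabp2 at 15.7 to 271 CPM over the libraries. Krt20 was lower in Hmgb1-deleted than in floxed tumours, and Cdh17 and Krt20 were higher in both tumour groups than in normal liver, while in floxed tumours against normal liver Vil1 was also higher and Lgals4 was lower, which makes 3 higher and 1 lower of 7 tested. Of the tested markers 16.7%, 33.3% and 57.1% passed in Hmgb1-deleted over floxed tumours and in Hmgb1-deleted and floxed tumours over normal liver. Among all genes 7.78%, 34.7% and 48.7% passed in these comparisons. Cdh17 was at a mean of 6.13 CPM in Hmgb1-deleted tumours, 34.9 CPM in floxed tumours and 0.0136 CPM in normal livers. The part of these genes' cells in the Apoa4 values was not tested.

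Apoa5, next to Apoa4, encodes a low-abundance protein that promotes the removal of plasma triglyceride by lipoprotein lipase. It went the other way. Its levels were 646.5, 748, 1258, 1436, 288 and 913 CPM in Hmgb1-deleted tumours 1 to 6, and 379, 686, 723, 555, 247 and 258 CPM in floxed tumours 1 to 6, against 1223, 1582 and 1374 CPM in normal livers 1 to 3. All 6 floxed tumours were below all normal livers, and the Hmgb1-deleted tumours overlapped both groups: tumours 3 and 4 lay within the normal range and tumour 5 among the lowest floxed tumours. Apoa5 fell by 1.55 ± 0.35 on the log2 scale in floxed tumours against normal liver (adjusted p = 0.00445, edgeR), that is 2.93-fold. The log2 fold change of Hmgb1-deleted tumours was -0.65 ± 0.41 over normal liver (adjusted p = 0.232, edgeR) and 0.91 ± 0.39 over floxed tumours (adjusted p = 0.169).

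Apoa1 encodes the main protein of high density lipoprotein and the activator of the enzyme LCAT. Its level was 12956, 8368, 16821, 12300.4, 6591 and 17743 CPM in Hmgb1-deleted tumours 1 to 6. In floxed tumours 1 to 6 it was 19169, 31799, 37356, 22119, 13007 and 27143 CPM. In normal livers 1 to 3 it was 6737, 7838 and 9735 CPM. Every floxed tumour exceeded every normal liver, and 4 of 6 Hmgb1-deleted tumours did, with tumour 2 inside the normal range and tumour 5 below it. Apoa1 was higher by 1.63 ± 0.36 (log2; adjusted p = 0.0043, edgeR) in floxed tumours than in normal liver, or 3.10-fold. In Hmgb1-deleted tumours it was at 0.64 ± 0.37 over normal liver (log2; adjusted p = 0.204, edgeR) and at -0.99 ± 0.33 over floxed tumours (adjusted p = 0.0834), with a 95% interval of -1.71 to -0.28. The difference between the tumour groups passed without floxed tumour 5 (log2 fold change -1.13, adjusted p = 0.0474, edgeR), and over the 23 alternatives its adjusted p ran over a range of 0.00778 to 0.175. Without Hmgb1-deleted tumours 2 and 5 the log2 fold change was -0.75 (adjusted p = 0.175, edgeR). The summed level of 11 hepatocyte markers was 90523 to 193913 CPM (median 145888) in Hmgb1-deleted tumours, 124664 to 320680 CPM (median 248323) in floxed tumours and 129525 to 156837 CPM (median 144487) in normal livers. Albumin alone ran from 55990 to 241430 CPM over the 15 libraries, and no other listed marker exceeded 29524 CPM. These sums are therefore largely albumin. Of the 11 markers 0 passed between the tumour groups in edgeR. Against normal liver, 0 were higher and 1 lower in Hmgb1-deleted tumours (log2 fold changes of -2.77 to 0.997). In floxed tumours 3 were higher and 1 lower (-3.06 to 1.41). These calls make 9.09% and 36.4% of the list, beside 34.7% and 48.7% of all genes tested. The markers' part in the Apoa1 values was not tested. In bulk samples, fewer cells of a type and less RNA per cell cannot be told apart.

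Apoc3, the remaining gene of the cluster, encodes an inhibitor of lipoprotein lipase and of the clearance of remnant particles. It averaged 1760 ± 857 CPM in Hmgb1-deleted tumours, 2131 ± 982 CPM in floxed tumours and 1258 ± 328 CPM in normal livers. None of its comparisons passed in the main test, while floxed tumours over normal liver passed under 3 of 19 alternatives. Its log2 fold changes were -0.26 ± 0.38 in Hmgb1-deleted over floxed tumours (adjusted p = 0.731, edgeR), 0.49 ± 0.44 in Hmgb1-deleted tumours over normal liver (adjusted p = 0.402) and 0.76 ± 0.37 in floxed tumours over normal liver (adjusted p = 0.114).

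**Figure D2:**
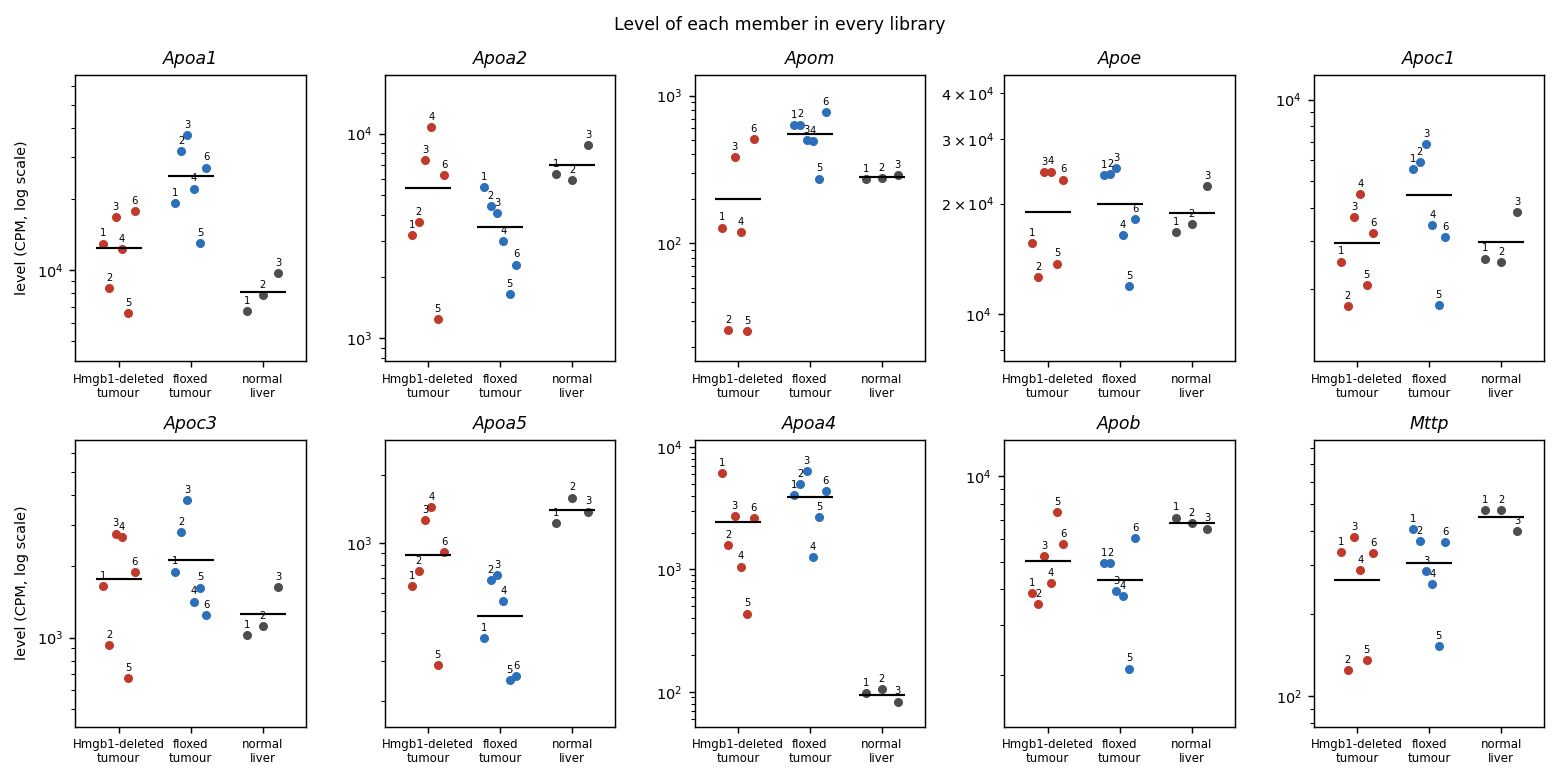
Level of each member in CPM (log axis, a different range in each panel) in every library of Hmgb1-deleted tumours, floxed tumours and normal livers; points carry the sample number and the black bar is the group mean. Apoa4 is above normal liver in all 12 tumours, and Apom in Hmgb1-deleted tumours 2 and 5 lies near 26 CPM, below every other library.

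The promoters of the cluster genes that passed in floxed tumours are shown, with that of Apom, so that the letters before each start site can be set beside these levels. RefSeq windows were matched for 8 of the 10 members (12 windows, build GRCm38.p6, while the counts rest on mm9), and Apoc1 and Apoc3 are only named. Each line gives the 250 bases before the annotated start, 5′ to 3′, and capitals mark matches, on either strand, to the TATA box letters TATAAA, to the nuclear receptor half-site AGGTCA or to the longer HNF4-type motif CAAAGTNCA, 3 motifs chosen after the sequences had been seen.
Apoa1, chr9:46228380-46228629, plus strand: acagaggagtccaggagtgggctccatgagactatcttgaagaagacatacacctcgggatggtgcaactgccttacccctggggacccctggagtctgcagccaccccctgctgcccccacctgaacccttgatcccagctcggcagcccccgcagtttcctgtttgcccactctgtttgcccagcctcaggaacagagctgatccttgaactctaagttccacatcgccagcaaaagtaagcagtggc
Apoa4, chr9:46240594-46240843, plus strand: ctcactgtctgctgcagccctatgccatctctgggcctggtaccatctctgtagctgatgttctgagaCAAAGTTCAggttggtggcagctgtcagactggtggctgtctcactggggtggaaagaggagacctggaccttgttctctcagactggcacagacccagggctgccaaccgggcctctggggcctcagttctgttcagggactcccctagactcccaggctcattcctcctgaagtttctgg
Apoa5, chr9:46268358-46268607, plus strand: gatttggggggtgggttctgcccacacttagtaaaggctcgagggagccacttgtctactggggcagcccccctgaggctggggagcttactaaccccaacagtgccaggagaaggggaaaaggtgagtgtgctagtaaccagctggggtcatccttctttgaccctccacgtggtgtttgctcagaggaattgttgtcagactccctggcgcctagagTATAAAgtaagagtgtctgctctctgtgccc
Apom, chr17:35131802-35132051, minus strand: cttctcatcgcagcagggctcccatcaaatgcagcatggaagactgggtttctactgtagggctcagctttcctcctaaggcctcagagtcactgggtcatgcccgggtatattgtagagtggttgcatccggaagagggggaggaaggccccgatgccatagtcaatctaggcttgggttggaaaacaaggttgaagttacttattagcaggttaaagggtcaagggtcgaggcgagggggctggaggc

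The Apoa4 window held CAAAGTTCA at positions -182 to -174 from the start. Of 32851 mouse windows of this length, 1.19% hold a match to that 9-letter motif, and 1 of the 12 member windows did. The Apoa5 window held TATAAA at positions -31 to -26 from the start printed here, which is -56 to -51 from the gene's other RefSeq start, and of the 2 starts only that other one was found in a GENCODE transcript. TATAAA is a match that 12.4% of all windows and 5 of the 12 member windows hold (those of Apoa2, Apob and Apoe and both overlapping windows of Apoa5). AGGTCA was found in 14% of all windows and in 1 member window, of Apoa2. The Apoa1 and Apom windows held none of the 3 letter strings. A match describes letters only and is no evidence of a bound site, and no overlap between motifs was found in the 4 printed windows.

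Apoa2 and Apom complete the proteins of high density lipoprotein. Apoa2, its second structural protein, was at 3199, 3700.4, 7393, 10794, 1238 and 6250.2 CPM in Hmgb1-deleted tumours 1 to 6. It was at 5460.5, 4411, 4108, 2974, 1649 and 2295 CPM in floxed tumours 1 to 6, and at 6340.3, 5931 and 8767 CPM in normal livers 1 to 3. All floxed tumours were below all normal livers, whereas the Hmgb1-deleted tumours ran from below every floxed tumour to above every normal liver. Apoa2 fell by 1.01 ± 0.35 on the log2 scale in floxed tumours against normal liver (adjusted p = 0.0335, edgeR). That call was lost when any 1 of the 3 normal livers, or floxed tumour 4 or 6, was left out, with adjusted p of 0.0674, 0.0592 and 0.137 without normal livers 1, 2 and 3, and of 0.0619 and 0.0554 without floxed tumours 4 and 6. In Hmgb1-deleted tumours the log2 fold change was -0.36 ± 0.55 over normal liver (adjusted p = 0.618, edgeR) and 0.66 ± 0.45 over floxed tumours (adjusted p = 0.404).

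Apom encodes apolipoprotein M, a lipocalin of high density lipoprotein that carries sphingosine-1-phosphate. It had the widest spread of any member among the Hmgb1-deleted tumours. Tumours 1 to 6 of that group had 128, 26.0, 385, 119, 25.5 and 507 CPM. Floxed tumours 1 to 6 had 632, 637, 501, 489.8, 274.6 and 772 CPM, and normal livers 1 to 3 had 272, 278 and 290.3 CPM. In the Hmgb1-deleted group, tumours 3 and 6 exceeded all normal livers, the other 4 were below all normal livers, and tumours 2 and 5 had 9.28% and 9.11% of the normal mean. Apom was higher in floxed tumours than in normal liver by 0.98 ± 0.28 (log2; adjusted p = 0.0164, edgeR), a call that was lost when any 1 normal liver was left out (adjusted p = 0.0662, 0.0615 and 0.0572 without livers 1, 2 and 3). In Hmgb1-deleted over floxed tumours its log2 fold change was -1.45 ± 0.65 (95% interval -2.87 to -0.04, adjusted p = 0.191, edgeR), and without tumours 2 and 5 it was -0.96 (adjusted p = 0.213). Over normal liver it was -0.49 ± 0.85 (adjusted p = 0.671, edgeR).

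Apoe and Apoc1 are neighbours on chromosome 7. Apoe encodes the ligand by which remnant particles are taken up through the LDL receptor and LRP1, and Apoc1 encodes a small protein that slows this uptake. Apoe hardly differed between group means, at 19004 ± 5586 CPM in Hmgb1-deleted tumours, 19888 ± 5239 CPM in floxed tumours and 18878 ± 3041 CPM in normal livers. Its range was 12636 to 24429 CPM with a median of 19434 in Hmgb1-deleted tumours, 11918 to 24918 CPM with a median of 21003 in floxed tumours, and 16720 to 22356 CPM in normal livers, so that all 3 groups overlapped. The log2 fold change was -0.05 (95% interval -0.64 to 0.55) in Hmgb1-deleted over floxed tumours, 0.02 (-0.71 to 0.76) in Hmgb1-deleted tumours over normal liver and 0.07 (-0.56 to 0.71) in floxed tumours over normal liver. The sign of each of these 3 differences changed with the scaling or with the library left out, and differences inside the intervals could not be resolved with these samples.

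Macrophages are another source of Apoe. Of 12 macrophage markers, 0 passed between the tumour groups in edgeR, and their sum was 377 to 539 CPM in Hmgb1-deleted tumours, 229.5 to 935 CPM in floxed tumours and 272 to 379.7 CPM in normal livers. Against normal liver, Cd68, Lyz2, Trem2 and Gpnmb were higher and Cd163 was lower in each tumour group, and none of the 12 was at 0 in all libraries. Calls against normal liver make 41.7% of the markers in each tumour group, beside 34.7% of all genes in Hmgb1-deleted and 48.7% in floxed tumours. Between the tumour groups, 7.78% of all genes passed. The part of macrophages in the Apoe values was not tested.

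Apoc1 was at 2531, 1738, 3687, 4495, 2073 and 3213 CPM in Hmgb1-deleted tumours 1 to 6, and at 5532, 5901, 6871, 3440, 1754 and 3118 CPM in floxed tumours 1 to 6, with 2597, 2515 and 3857 CPM in normal livers. The highest values were those of floxed tumours 1, 2 and 3, which exceeded every other library. The remaining tumours ranged from below to above the normal livers. No Apoc1 comparison passed in the main test, while floxed tumours over normal liver passed under 3 of 19 alternatives. Its log2 fold changes were -0.57 ± 0.34 in Hmgb1-deleted over floxed tumours (adjusted p = 0.337, edgeR), -0.01 ± 0.33 in Hmgb1-deleted tumours over normal liver (adjusted p = 0.989) and 0.57 ± 0.40 in floxed tumours over normal liver (adjusted p = 0.264).

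Apob and Mttp, the pair that starts the assembly of very low density lipoprotein, had lower group means in tumours than in normal liver but did not pass in the main test. Apob, which encodes the single large protein that stays with each particle, was at 3877, 3549, 5234, 4208, 7470.1 and 5787 CPM in Hmgb1-deleted tumours 1 to 6. It was at 4956.5, 4958, 3950, 3790.1, 2101 and 6047 CPM in floxed tumours 1 to 6, and at 7153, 6850 and 6548 CPM in normal livers. All floxed tumours and 5 of 6 Hmgb1-deleted tumours were below all normal livers, and Hmgb1-deleted tumour 5 was above them. The log2 fold change was 0.25 ± 0.28 in Hmgb1-deleted over floxed tumours (adjusted p = 0.642, edgeR), -0.43 ± 0.29 in Hmgb1-deleted tumours over normal liver (adjusted p = 0.268) and -0.67 ± 0.29 in floxed tumours over normal liver (adjusted p = 0.0808). The last passed when floxed tumour 5 (adjusted p = 0.0395, edgeR) or floxed tumour 6 (adjusted p = 0.0419) was left out.

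Mttp was at 334, 124, 380.3, 288, 136 and 331 CPM in Hmgb1-deleted tumours 1 to 6. It was at 406, 368, 286, 256, 152 and 363 CPM in floxed tumours 1 to 6, and at 476.3, 476.4 and 399 CPM in normal livers. All 6 Hmgb1-deleted and 5 of 6 floxed tumours were below all normal livers, and the lowest were Hmgb1-deleted tumours 2 and 5 and floxed tumour 5. The log2 fold change was -0.18 ± 0.31 in Hmgb1-deleted over floxed tumours (adjusted p = 0.775, edgeR), -0.75 ± 0.35 in Hmgb1-deleted tumours over normal liver (adjusted p = 0.119) and -0.56 ± 0.27 in floxed tumours over normal liver (adjusted p = 0.101). Over normal liver, Mttp passed under 2 of 21 alternatives in Hmgb1-deleted tumours and under 1 of 19 in floxed tumours.

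Set side by side, the tumours had individual profiles. Hmgb1-deleted tumour 5 was the lowest of its group in 6 members (Apoa1, Apoa2, Apoa4, Apoa5, Apoc3 and Apom) and the highest in Apob. Hmgb1-deleted tumour 2 was the lowest in the other 4, which are Apob, Apoc1, Apoe and Mttp, and tumour 4 was the highest in 4 (Apoa2, Apoa5, Apoc1 and Apoe). Among the floxed tumours, tumour 5 was the lowest in 8 of 10 members and tumour 3 the highest in 6. The scaling factors of Hmgb1-deleted tumours 2 and 5 and floxed tumour 5 were 1.37, 1.35 and 1.26. A higher factor gives a lower CPM for the same share of counts. By share of counts, floxed tumour 6 was below floxed tumour 5 in Apoa2 (0.187% and 0.208%), Apoa5 (0.0210% and 0.0313%) and Apoe (1.47% and 1.51%). Hmgb1-deleted tumour 4 was then the lowest of its group in Apob (0.412%, against 0.487% in tumour 2). The other lowest places named here stayed the same by share of counts. The factor's part in the size of these low values was not tested. Sums of cell type markers in these 3 tumours are given as well. In floxed tumour 5, the summed stellate cell markers were at 1876 CPM, against 285 to 454.5 CPM in the other floxed tumours, its macrophage and endothelial sums were the highest of that group at 935 and 592 CPM, and its hepatocyte sum was the lowest at 124664 CPM. Hmgb1-deleted tumours 2 and 5 had the lowest hepatocyte sums of their group, at 90523 and 102874 CPM. As a share of all counts, albumin was at 7.69% in tumour 2 and at 10.3% in tumour 5, above the 10.1% of tumour 4. The cholangiocyte sums of tumours 2 and 5 were the highest of that group, at 6168 and 1183 CPM, against 224 to 990.0 CPM in the other 4. Within that list Spp1 alone ran from 42.0 to 6024 CPM over the 15 libraries, and no other marker exceeded 61.3 CPM. Floxed tumours 3, 4 and 5 had higher cholangiocyte sums than Hmgb1-deleted tumour 5, at 1347, 1592 and 1797 CPM. The part of these cell types in the members' values was not tested. Groups did not overlap for 0 of 10 members in Hmgb1-deleted against floxed tumours, for 2 in Hmgb1-deleted tumours against normal liver (Apoa4 and Mttp) and for 5 in floxed tumours against normal liver (Apoa1, Apoa2, Apoa4, Apoa5 and Apob). Over all genes tested, 4.93%, 37.6% and 46.3% did not overlap in these 3 comparisons, so the members' counts are near or below that background.

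**Figure D3:**
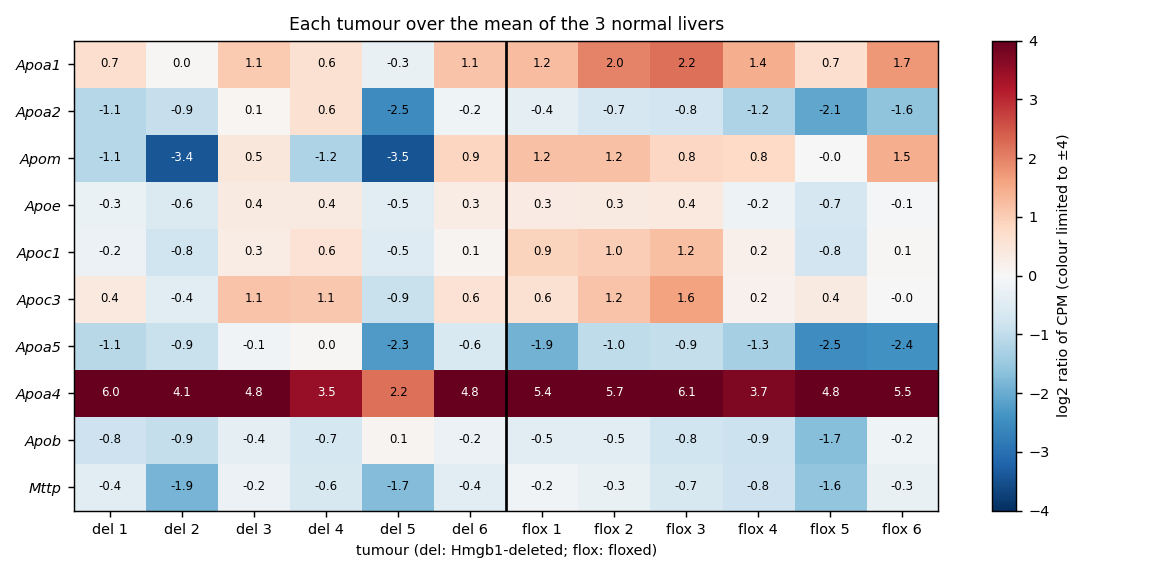
Log2 ratio of the CPM of each tumour to the mean of the 3 normal livers, for Hmgb1-deleted tumours 1 to 6 (left) and floxed tumours 1 to 6 (right), with members in rows. Apoa4 is above normal in every column, and the 2 darkest blue cells are Apom in Hmgb1-deleted tumours 2 and 5, at -3.43 and -3.46.

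As a share of all counts in a library, the members together took 4.4% to 6.05% in Hmgb1-deleted tumours (median 5.61%), 4.47% to 7.54% in floxed tumours (median 6.02%) and 3.89% to 4.82% in normal livers (median 4.10%). Levels can be set against each other between genes only per transcript length, for which CPM were divided by the median length in kilobases of the protein-coding transcripts of each gene in GENCODE vM21, 432 bases for Apoc1 to 13934 bases for Apob. On that scale Apoe led in Hmgb1-deleted tumours at a mean of 17029 CPM per kb, before Apoa1 at 12042 and Apoa2 at 11287. In floxed tumours Apoa1 led at 24250.0 CPM per kb, before Apoe at 17821 and Apoc1 at 10268. In normal livers Apoe led at 16916 CPM per kb, before Apoa2 at 14579 and Apoa1 at 7829. Apoa4 stood in place 6 in both tumour groups, at 1336 and 2169 CPM per kb in Hmgb1-deleted and floxed tumours, and in place 10 in normal liver at 52.4 CPM per kb. In normal liver the ranges of neighbours in the order overlapped for 2 pairs, Apoe with Apoa2 and Apoa1 with Apoc1. In Hmgb1-deleted tumours every pair of neighbours overlapped, and in floxed tumours every pair but Apob with Mttp.

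**Figure D4:**
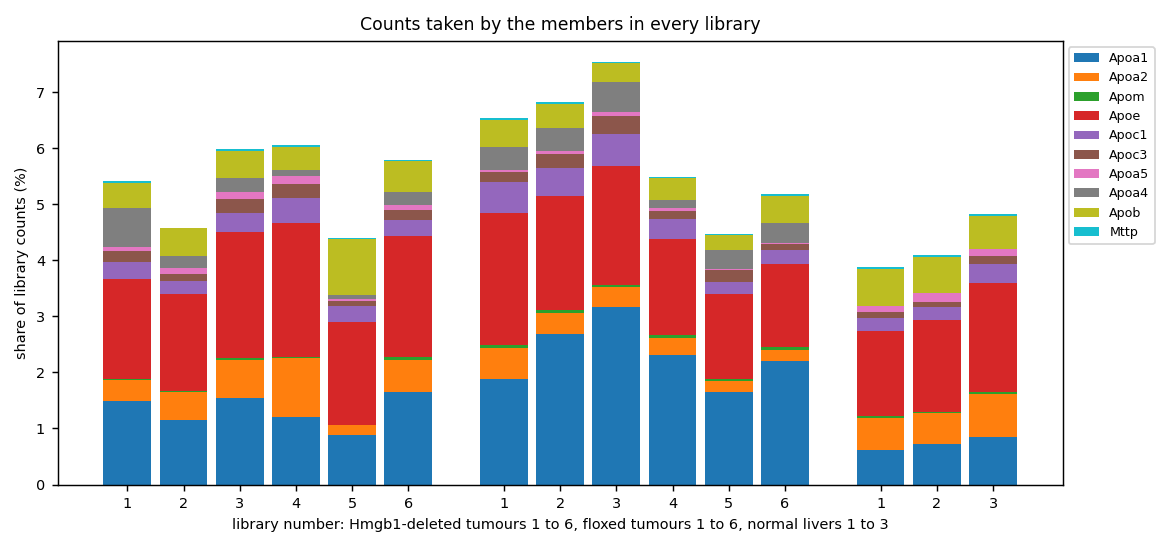
Share of all counts (%) taken by each member in every library, stacked, for Hmgb1-deleted tumours, floxed tumours and normal livers; a longer transcript gathers more counts at the same number of molecules. The floxed tumours reach 7.54% and the normal livers do not exceed 4.82%.

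Ratios between members within a library do not depend on its scaling factor, and 4 pairs chosen after the values had been seen are given as a description. Per length, Apoa1 over Apoa2 was 0.53 to 2.47 in Hmgb1-deleted tumours (median 1.19), 1.63 to 5.5 in floxed tumours (median 3.56) and 0.49 to 0.61 in normal livers (median 0.52). Apoa4 over Apoa5 was 0.62 to 7.94 in Hmgb1-deleted tumours (median 1.79), 1.91 to 14.1 in floxed tumours (median 8.15) and 0.051 to 0.067 in normal livers (median 0.055). All 12 tumours were above all normal livers in the Apoa4 over Apoa5 ratio. Apoa1 over Apoc3 was 2.35 to 4.97, 4.06 to 11.1 and 3.03 to 3.56 in Hmgb1-deleted tumours, floxed tumours and normal livers, and Apoe over Apoc1 was 2.1 to 2.81, 1.40 to 2.63 and 2.24 to 2.70 in those groups.

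Apoa4 had the widest range of group means, and 11824 genes were ranked by how closely their profile over the 15 libraries followed it, by root mean square distance on the log2 scale after centring. The 5 nearest were Pnpla3 (distance 0.70), a lipid droplet lipase, Golm1 (0.76), a Golgi membrane protein, B4galt6 (0.78), a lactosylceramide synthase, Arhgap22 (0.80) and Scd2 (0.83), a stearoyl-CoA desaturase, where the median gene was at 2.16. Pnpla3 averaged 25.9 CPM in Hmgb1-deleted tumours, 39.6 CPM in floxed tumours and 1.01 CPM in normal livers. Scd2 averaged 130.2 CPM in Hmgb1-deleted tumours, 373.5 CPM in floxed tumours and 7.64 CPM in normal livers. The distance depends on the size of the step from normal liver to tumours, and closeness among the tumours alone was not tested.

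Of 13 other apolipoproteins and lipoprotein-borne proteins that were tested, 1 was higher and 0 lower in Hmgb1-deleted than in floxed tumours (median log2 fold change 0.09). Against normal liver, 2 were higher and 1 lower in Hmgb1-deleted tumours (median -0.29), and 2 higher and 4 lower in floxed tumours (median -0.23). These calls make 7.69%, 23.1% and 46.2% of the list, beside 7.78%, 34.7% and 48.7% of all genes tested. Apoc2, the cofactor without which lipoprotein lipase does not act, was at 297 to 1926 CPM in Hmgb1-deleted tumours (median 1018), 1103 to 4162 CPM in floxed tumours (median 2336) and 159 to 169 CPM in normal livers (median 160). Every tumour was above every normal liver. Apoc2 was higher by 2.67 ± 0.67 (log2; adjusted p = 0.0152, edgeR) in Hmgb1-deleted tumours and by 3.98 ± 0.44 (adjusted p = 7.21e-05, edgeR) in floxed tumours than in normal liver. The call for Hmgb1-deleted tumours was lost without any 1 of the 3 normal livers, with an adjusted p of up to 0.0664 in edgeR. Between the tumour groups its log2 fold change was -1.31 ± 0.49 (adjusted p = 0.124, edgeR), which passed with DESeq2 (adjusted p = 0.0338). Apoc2 overlaps an annotated gene on the same strand, so how its reads were assigned is uncertain. Pon1, the antioxidant esterase of high density lipoprotein, averaged 327 ± 242 CPM in Hmgb1-deleted tumours, 77.1 ± 33.1 CPM in floxed tumours and 1102 ± 113 CPM in normal livers. Pon1 was higher in Hmgb1-deleted than in floxed tumours by 2.1 ± 0.50 (log2; adjusted p = 0.0243, edgeR), a call lost without floxed tumour 1 or 2 or Hmgb1-deleted tumour 4 (adjusted p of up to 0.0576). Without Hmgb1-deleted tumours 3, 4 and 6, picked as nearest to normal liver, its log2 fold change was 0.80 (adjusted p = 0.248, edgeR). It fell by 3.83 ± 0.34 on the log2 scale in floxed tumours against normal liver (adjusted p = 1.96e-05, edgeR), and by 1.75 ± 0.57 in Hmgb1-deleted tumours (adjusted p = 0.0399), where 5 single libraries each ended the call (Hmgb1-deleted tumours 2 and 6 and normal livers 1 to 3, adjusted p of up to 0.112), as did leaving out tumours 2 and 5 together (0.0741).

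Of 38 other genes of lipoprotein assembly and secretion, 4 were higher and 1 lower in Hmgb1-deleted than in floxed tumours (median -0.05). Against normal liver, 4 were higher and 8 lower in Hmgb1-deleted tumours (median 0.01), and 5 higher and 10 lower in floxed tumours (median 0.03). The shares called were 13.2%, 31.6% and 39.5%, beside 7.78%, 34.7% and 48.7% of all genes tested. Ces1g and Ces1d encode carboxylesterases that mobilise stored triglyceride in mouse liver. Ces1g was at 177 to 455 CPM in Hmgb1-deleted tumours (median 287), 21.5 to 90.8 CPM in floxed tumours (median 44.0) and 177 to 251 CPM in normal livers (median 244). The tumour groups did not overlap, and 5 of 6 Hmgb1-deleted tumours were above all normal livers. Ces1g was higher in Hmgb1-deleted than in floxed tumours by 2.51 ± 0.38 (log2; adjusted p = 0.00427, edgeR) and lower in floxed tumours than in normal liver by 2.07 ± 0.42 (log2 fold change -2.07, adjusted p = 0.00251). Ces1d averaged 314 ± 212 CPM, 82.2 ± 31.3 CPM and 737.8 ± 74.9 CPM in Hmgb1-deleted tumours, floxed tumours and normal livers, with a log2 fold change of 1.94 ± 0.43 between the tumour groups (adjusted p = 0.0186, edgeR), which was 0.82 (adjusted p = 0.146) without Hmgb1-deleted tumours 3, 4 and 6. The Ces1 genes are close copies of each other, so their counts are uncertain. Cideb, which helps to load lipid onto very low density particles, was at 36.3 ± 4.25 CPM in Hmgb1-deleted tumours, 20.4 ± 7.23 CPM in floxed tumours and 57.9 ± 3.85 CPM in normal livers. Its log2 fold change between the tumour groups was 0.85 ± 0.22 (adjusted p = 0.0355, edgeR), and 7 of the 12 single libraries each ended that call (adjusted p of up to 0.0735), as did leaving out Hmgb1-deleted tumours 3, 4 and 6 (0.70, adjusted p = 0.174). A1cf, a cofactor of Apob mRNA editing, was higher in Hmgb1-deleted than in floxed tumours by 0.97 ± 0.24 (adjusted p = 0.0295, edgeR), which 6 of 12 single libraries ended (up to 0.0726), and was at 0.49 (adjusted p = 0.257) without Hmgb1-deleted tumours 3, 4 and 6. Sort1, a sorting receptor that binds apolipoprotein B, was lower by 0.43 ± 0.11 (log2 fold change -0.43, adjusted p = 0.028, edgeR), which floxed tumour 1 or 5 or Hmgb1-deleted tumour 4 ended (up to 0.0553), as did library totals (-0.28, adjusted p = 0.404), the replicate block (0.0829) and leaving out Hmgb1-deleted tumours 3, 4 and 6 (0.0582). Mia2, a cargo receptor for large secretory loads, was lower than in normal liver in both tumour groups, at 12.4 ± 5.53 CPM in Hmgb1-deleted tumours, 10.8 ± 7.36 CPM in floxed tumours and 86.8 ± 26.9 CPM in normal livers.

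Among lipoprotein receptors, 1 was higher and 2 lower of 18 tested in Hmgb1-deleted against floxed tumours (median -0.28). Against normal liver, 3 were higher and 6 lower of 18 in Hmgb1-deleted tumours (median -0.29). In floxed tumours 7 were higher and 6 lower of 19 (median 0.35). The receptors called were 16.7%, 50% and 68.4% of those tested, beside 7.78%, 34.7% and 48.7% of all genes. Cd36, a scavenger receptor and fatty acid transporter, averaged 225 ± 55.5 CPM in Hmgb1-deleted tumours, 87.5 ± 30.6 CPM in floxed tumours and 30.8 ± 3.12 CPM in normal livers. It was higher in Hmgb1-deleted than in floxed tumours by 1.39 ± 0.24 (log2; adjusted p = 0.00697, edgeR), and the call held with each single library left out. The scavenger receptor Stab1 was lower by 0.60 ± 0.13 (log2 fold change -0.60, adjusted p = 0.0152, edgeR), a call lost with library totals (-0.46, adjusted p = 0.116) and with the replicate block (0.0553). Lrp1, the hepatic remnant receptor, was at 378 ± 120 CPM in Hmgb1-deleted tumours, 325 ± 20.2 CPM in floxed tumours and 1110 ± 234 CPM in normal livers. It was lower than in normal liver in both tumour groups, with log2 fold changes of -1.54 ± 0.28 (adjusted p = 0.00424, edgeR) and -1.77 ± 0.17 (adjusted p = 2.98e-05) in Hmgb1-deleted and floxed tumours.

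Of 17 lipases, remodelling enzymes and plasma regulators, 1 was higher and 1 lower in Hmgb1-deleted than in floxed tumours (median -0.02). Against normal liver, 3 were higher and 5 lower in Hmgb1-deleted tumours (median -0.15), and 3 higher and 7 lower in floxed tumours (median -0.41). That is 11.8%, 47.1% and 58.8% of the list, beside 7.78%, 34.7% and 48.7% of all genes tested. Lpl, the lipase that hydrolyses triglyceride in circulating particles and is low in adult liver, was at 52.7 to 162 CPM in Hmgb1-deleted tumours (median 100.5), 135 to 935 CPM in floxed tumours (median 446) and 30.3 to 41.5 CPM in normal livers (median 36.9). It was lower in Hmgb1-deleted than in floxed tumours by 2.22 ± 0.44 (log2 fold change -2.22, adjusted p = 0.0108, edgeR), with floxed tumour 6, at 135 CPM, inside the range of the Hmgb1-deleted tumours, and higher than normal liver in both, by 1.47 ± 0.35 (adjusted p = 0.0127) and 3.69 ± 0.59 (adjusted p = 0.000634). The call of Hmgb1-deleted tumours over normal liver was lost without normal liver 1 (adjusted p = 0.0636, edgeR). Pcsk6, a proprotein convertase, was higher in Hmgb1-deleted than in floxed tumours by 0.68 ± 0.19 (log2; adjusted p = 0.0473, edgeR), a call that 10 of 12 single libraries ended (up to 0.110), as did RLE factors (0.0536), no filter (0.0589), and leaving out Hmgb1-deleted tumours 2 and 5 (0.0689) or 3, 4 and 6 (0.40, adjusted p = 0.307). The hepatic lipase Lipc was at 66.1 ± 35.2 CPM in Hmgb1-deleted tumours, 32.1 ± 10.8 CPM in floxed tumours and 226.8 ± 7.84 CPM in normal livers, and it was lower than in normal liver in both tumour groups (adjusted p = 0.0113 and 2.7e-05, edgeR). Lcat, the cholesterol-esterifying enzyme that Apoa1 activates, was lower than in normal liver in both as well, at 158 ± 54.1 CPM in Hmgb1-deleted tumours, 172 ± 43.5 CPM in floxed tumours and 403 ± 24.3 CPM in normal livers.

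**Figure D5:**
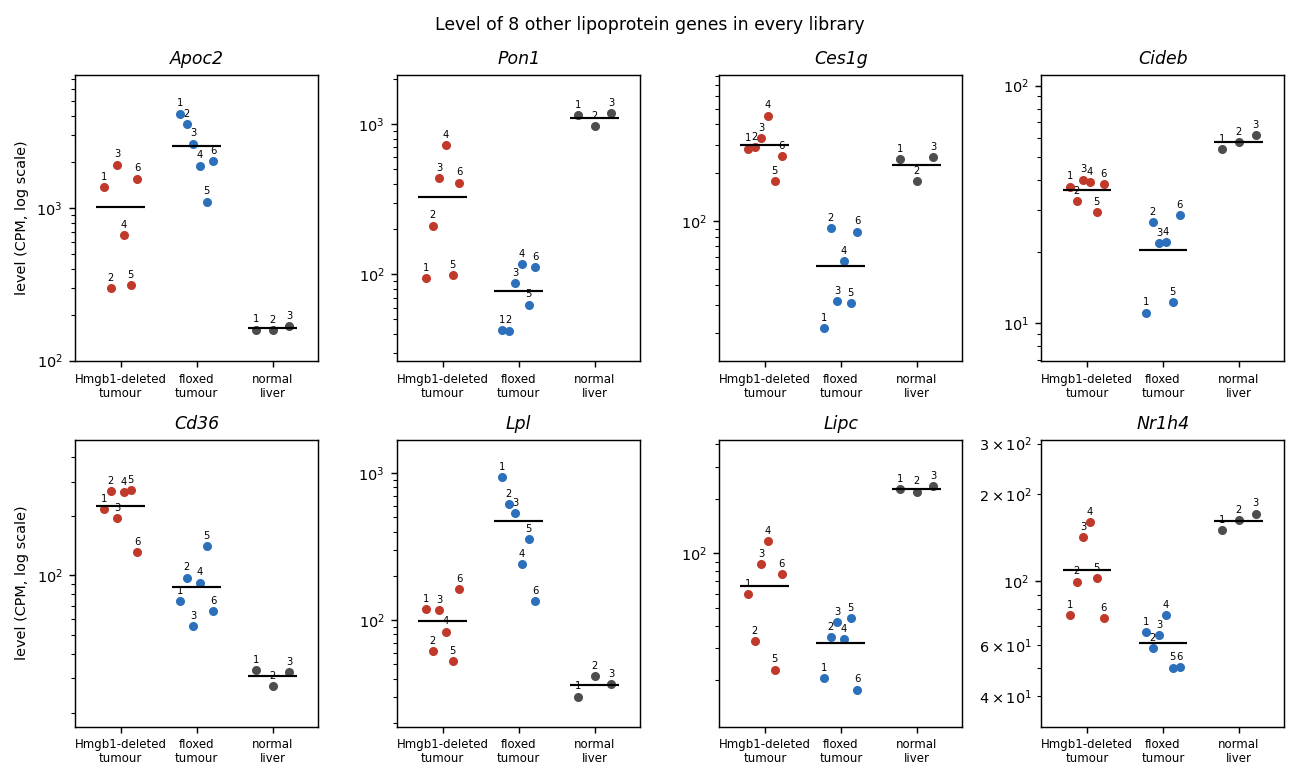
Level in CPM (log axis, a different range in each panel) of Apoc2, Pon1, Ces1g, Cideb, Cd36, Lpl, Lipc and Nr1h4 in every library of Hmgb1-deleted tumours, floxed tumours and normal livers, with sample numbers and the group mean as a bar. Ces1g in Hmgb1-deleted tumours, at 177 to 455 CPM, lies entirely above the floxed tumours, at 21.5 to 90.8 CPM.

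Of 28 transcription regulators of apolipoprotein genes, 1 was higher and 0 lower in Hmgb1-deleted than in floxed tumours (median 0.08). Against normal liver, 1 was higher and 12 lower in Hmgb1-deleted tumours (median -0.64), and 1 higher and 15 lower in floxed tumours (median -0.76). Calls in either direction were 3.57%, 46.4% and 57.1%, beside 7.78%, 34.7% and 48.7% of all genes tested. Lower than normal liver were 16.6% of all genes in Hmgb1-deleted tumours and 23.8% in floxed tumours. The bile acid receptor Nr1h4 averaged 109 ± 35.2 CPM in Hmgb1-deleted tumours, 61.2 ± 10.2 CPM in floxed tumours and 162 ± 10.54 CPM in normal livers. It was higher in Hmgb1-deleted than in floxed tumours by 0.86 ± 0.20 (log2; adjusted p = 0.0211, edgeR), a call lost without Hmgb1-deleted tumour 4 (adjusted p = 0.0558) or without tumours 3, 4 and 6 (0.0647). Creb3l3, a membrane-bound transcription factor of hepatocytes, was at 201 ± 88.1 CPM in Hmgb1-deleted tumours, 155 ± 49.9 CPM in floxed tumours and 407 ± 50.02 CPM in normal livers. It was lower in floxed tumours than in normal liver (log2 fold change -1.39 ± 0.27, adjusted p = 0.0019, edgeR) and lower in Hmgb1-deleted tumours (-1.01 ± 0.33, adjusted p = 0.0383). The latter call was lost under 11 of 21 alternatives, among them 7 of 9 single libraries (up to 0.136). The nuclear receptor Nr5a2 was lower in both, at 28.7 ± 3.74 CPM in Hmgb1-deleted tumours, 29.9 ± 8.17 CPM in floxed tumours and 75.1 ± 12.4 CPM in normal livers (adjusted p = 0.000556 and 0.000614, edgeR). Hnf4a, which binds many apolipoprotein promoters, averaged 625.2 ± 161 CPM, 593 ± 214 CPM and 765 ± 111 CPM in Hmgb1-deleted tumours, floxed tumours and normal livers, and none of its comparisons passed (adjusted p = 0.863 between tumour groups, 0.396 and 0.304 over normal liver, edgeR).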

How the data were processed

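Poly-A RNA of 6 Hmgb1-deleted tumours, 6 floxed tumours and 3 normal livers was sequenced from TruSeq libraries after column extraction with a DNase step, per the labels' protocols. The authors deposited raw read counts per gene symbol, and the submitters' processing notes name bcl2fastq 1.8.4, Bowtie2 2.2.4, TopHat2 2.1.0, HTSeq 0.6.1 and the build mm9. The strand setting is not given in the sources used here.

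From the deposited counts, each pair of groups was compared in its own fit with edgeR 4.0.16 (R 4.3.3): filterByExpr, TMM factors, a robust quasi-likelihood F test and Benjamini-Hochberg adjustment over all genes tested, called at 0.05. The SE of a log2 fold change was its size over the square root of F. CPM used TMM factors over all 15 libraries. For Hmgb1, group means of log2(CPM + 1) were compared by exact permutation, two-sided. Alternatives were RLE, upper-quartile and no scaling factors, other filters, DESeq2 1.42.0, voom with sample weights (limma 3.58.1), all 15 samples in 1 fit, a replicate block, and leaving out libraries. The fit was tested on simulated data.

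The members, the gene lists and the tests were chosen with earlier results of these data known. Of 207 entries in 12 lists and the members, 205 were matched, 3 by an older name. The text names the members, up to 4 genes per pathway list by p between the tumour groups and up to 2 per comparison with normal liver, and the 5 genes nearest to Apoa4. Cideb, Creb3l3 and Hnf4a fall outside that rule and were chosen after their values were seen. Replicate numbers were not used as pairs, since deviations of same-numbered samples were only weakly correlated. The correlations were -0.26 to 0.23 over 6 pairs of tumours. They were -0.11 to 0.14 over 3 pairs of floxed tumours with normal livers, and 0.03 to 0.16 over 3 pairs of Hmgb1-deleted tumours with normal livers. Such values cannot exclude a shared batch. No 2 libraries of the same group matched within sampling noise, and pairs across groups were not compared. A gene that the rule names is not reported here.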

Additional observations from a re-analysis of the deposited data

Results flagged for a closer look

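Of 76 sets of 6 tumours searched, over the 10 members and the named pathway genes, 6 had 1 library far from the other 5, and chance gives about 1 in 20. No member was among them. In floxed tumour 3, Cebpa was at 278 CPM where the other floxed tumours were at 198 to 216 CPM, and Foxa1 was at 24.6 CPM where the others were at 18.5 to 19.6 CPM. Lrp6 in floxed tumour 1 was at 31.9 CPM, below the 49.7 to 55.6 CPM of the others. Rora in floxed tumour 6 was at 4.25 CPM, above 1.74 to 2.14 CPM in the others. Saa2, an acute-phase apolipoprotein with close copies, was at 226 CPM in Hmgb1-deleted tumour 6 against 12.2 to 46.97 CPM in the rest of that group, and at 47.8 CPM in floxed tumour 6 against 10.5 to 17.2 CPM in the rest of that group.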

How the results depend on the processing

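Apoa4 over normal liver kept its call under all 21 alternatives in Hmgb1-deleted tumours and all 19 in floxed tumours, as did Apoa1 and Apoa5 in floxed tumours over normal liver under all 19. Between the tumour groups the members called were 0, and 1 with library totals, DESeq2, voom, all 15 samples in 1 fit, or without Hmgb1-deleted tumours 3, 4 and 6, and 0 to 1 when 1 library was left out. That member was Apoa1, except without tumours 3, 4 and 6, where it was Apom (log2 fold change -3.21, adjusted p = 0.0183, edgeR). In floxed tumours against normal liver, 5 became 9 with voom, 3 with all 15 samples in 1 fit, 8 with only replicate numbers 1 to 3 (a setting chosen after seeing the data), and 3 to 6 with 1 library left out, 3 without each normal liver. There Apoa2 also lost its call with upper-quartile factors (adjusted p = 0.0685, edgeR), all 15 samples (0.0998) and the replicate block (0.0859), Apom lost it with all 15 samples (0.304), and Apob passed with library totals (0.0284), DESeq2 (0.0344), voom (0.00441) and the block (0.0498). In Hmgb1-deleted tumours against normal liver, 1 became 2 with library totals, 3 with voom, 5 without tumours 3, 4 and 6 (Apoa2, Apoa5, Apom and Mttp then lower; these 3 tumours were picked on earlier results as nearest to normal liver), 2 without tumours 2 and 5 (Apoa1 then higher, 0.89), and stayed at 1 with any 1 library left out.

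Genes called between the tumour groups were 1045, 1954 with DESeq2, 1629 with all 15 samples, and 589 (without Hmgb1-deleted tumour 4) to 1054 with 1 library left out; library totals gave 982 higher and 257 lower, against 598 and 447. Hmgb1-deleted tumours against normal liver gave 4787, and 2113 to 4912 with 1 library left out, the lowest without normal liver 1, with 2227 and 3109 without livers 2 and 3; upper-quartile factors gave 3390 higher and 1578 lower and library totals 2969 and 1062, against 2492 and 2295. Floxed tumours gave 4363 higher and 2509 lower with upper-quartile factors, against 3437 and 3277. Library totals moved the median gene by 0.18 between the tumour groups and by 0.28 in Hmgb1-deleted tumours over normal liver, and with them Hmgb1 over normal liver was at -0.38 (exact permutation test, adjusted p = 0.19). With the replicate block, 860 genes and 0 members were called between the tumour groups, and 3055 genes in Hmgb1-deleted tumours over normal liver. Whether the numbers pair the samples is not settled by the weak correlations of same-numbered samples.

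Signs turned only for log2 fold changes that had not passed. Between the tumour groups, Apoe was at 0.12 with library totals, 0.13 without tumours 2 and 5 and -0.16 to 0.046 with 1 library left out; without tumours 2 and 5, Apoc3 was at 0.061 and Mttp at 0.13, and without tumours 3, 4 and 6 Apoa2 was at -0.36. In Hmgb1-deleted tumours over normal liver, Apoc1 was at 0.14 with upper-quartile factors, 0.22 with library totals, 0.0075 with a filter of 1 CPM, 0.22 with voom, 0.22 without tumours 2 and 5 and -0.15 to 0.22 with 1 library left out. In that comparison Apoe was at -0.10 with the replicate block, -0.39 without tumours 3, 4 and 6, -0.064 with only replicate numbers 1 to 3 and -0.059 to 0.16 with 1 library left out, Apoc3 was at -0.17 without tumours 3, 4 and 6, and Apom at 0.033 without tumours 2 and 5. Apoe in floxed tumours over normal liver ran from -0.017 to 0.20 with 1 library left out. The causes were not tested. Every comparison with normal liver rests on 3 livers, so leaving out 1 of them leaves few samples in that group.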
